A study of Mus musculus with 2 samples.

Results

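The CREB family, its CRTC coactivators and the acetyltransferases that CREB recruits are described here as 10 genes taken by symbol from GENCODE M21 on the mouse assembly mm10, out of 21938 protein-coding genes. DNase-seq was done on the frontal cortex of F1 hybrid mice (B6CASTF1/J, males, 14 days old). A single group of 2 libraries was made, called replicate 1 and replicate 2 here, and the labels give 3 males for each. Their tissue samples differ but carry a single donor number, so that the spread may be technical. No condition was compared with another. For each gene, peaks and footprints were read over its span plus 10 kb on both sides, and by alternative promoter.

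DNase I cuts DNA most readily where it is free of nucleosomes, so a peak of cuts marks an open promoter or enhancer, and a footprint is a short protected stretch inside such a region that a bound protein may cover. CREB binds the cAMP response element (CRE), the palindrome TGACGTCA or its core TGACG. Calcium and cAMP signals lead kinases to phosphorylate CREB, which then binds the acetyltransferases CBP and p300. The same signals free the CRTC proteins to enter the nucleus and bind the CREB leucine zipper. In cortical neurons this pathway drives activity-dependent genes and is needed for lasting synaptic change and memory.

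Replicate 1 held 75753 peaks and replicate 2 held 77035, with 156390 and 202779 footprints. The height of a peak is the authors' signal, on a scale of its own in each library. Over 53623 regions shared by both libraries the height in replicate 2 differed from that in replicate 1 by a median of -0.06 on the log2 scale, with the central 95% between -0.89 and 0.59. Beside 59.7% of all protein-coding genes, a promoter peak in both libraries was found for 6 of 8 marker genes of cortical excitatory neurons, 2 of 4 of interneurons, 2 of 4 of astrocytes, 2 of 4 of the oligodendrocyte lineage, 1 of 3 of microglia, 1 of 3 of vascular cells and 0 of 6 genes that mark tissues outside the cortex, although replicate 1 by itself had low promoter peaks at Hoxb5 (0.418) and Ttr (0.621). The excitatory share is near that of all genes and the others lie below it, so these counts alone do not identify the cell types. In bulk tissue, a promoter open in fewer cells and a promoter less open in each cell cannot be told apart.

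In both libraries, each of the 10 genes had a promoter peak, that is, a peak within 1000 bp of an annotated start site, against 59.7% of all protein-coding genes. The mean height of the tallest promoter peak lay between 1.01 and 12.1, with the stress-regulated factors Atf2 and Atf4 and the founding member Creb1 at the top and the coactivator gene Crtc3 at the bottom. Median height over the 10 genes was 6.26, against 3.00 over the protein-coding genes that had such a peak in each library. The order was Atf2, Atf4, Creb1, Crtc2, Crem, Ep300, Crtc1, Crebbp, Atf1 and Crtc3. Between the libraries only Crtc2 and Crem, and Crebbp and Atf1, changed places. The ranges of the libraries overlapped between Atf2 and Atf4, Atf4 and Creb1, Crtc2 and Crem, and Crebbp and Atf1, so the spread between libraries was as large as these differences. Within each library, however, Atf2 stood above Atf4 and Atf4 above Creb1. The mean of Crtc1 was 2.30 times that of the next gene, Crebbp, and the mean of Atf1 was 2.18 times that of Crtc3, without overlap.

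**Figure D1:**
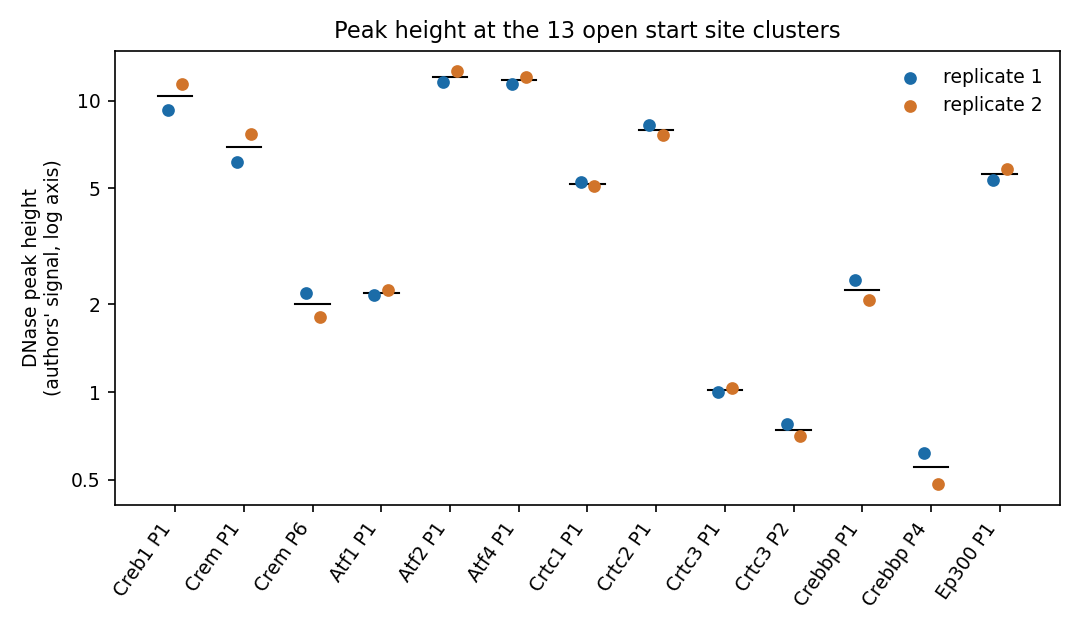
Height of the tallest DNase peak (vertical axis, authors' signal, log axis) at each of the 13 start site clusters with a peak in both libraries, for replicate 1 (blue) and replicate 2 (orange), with the mean as a black line (n = 2). Atf2 P1, Atf4 P1 and Creb1 P1 lie highest, and Crem P6, Crtc3 P2 and Crebbp P4 are the open clusters other than the first of each gene.

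Among the transcription factors, Atf2 (chr2:73816509-73892639, minus strand), a leucine zipper factor activated by stress kinases, had the tallest promoter peak. Its height was 11.6 in replicate 1 and 12.6 in replicate 2, with a mean of 12.1 ± 0.718 (SD, n = 2). It ranked above 96.3% and 97.4% of the genes with a promoter peak in replicate 1 and replicate 2. The shared region, chr2:73892761-73893020, lay upstream of all annotated Atf2 starts, 122 bp from the nearest, and within 1000 bp of a start of Gm10822, a long noncoding RNA gene on the other strand.

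Atf4 (chr15:80255184-80257541, plus strand) encodes a factor whose translation is raised in amino acid and endoplasmic reticulum stress. Its promoter peak reached 11.4 in replicate 1 and 12.1 in replicate 2, a mean of 11.7 ± 0.475 (SD, n = 2). The region chr15:80255001-80255280 covered the most used start. A lower shared region at chr15:80255821-80256280, inside the short gene, had heights of 1.04 and 1.11.

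Creb1 (chr1:64532645-64604548, plus strand) encodes CREB itself. Heights of its promoter peak were 9.29 in replicate 1 and 11.4 in replicate 2. The mean was 10.3 ± 1.46 (SD, n = 2), the largest SD of the 10 genes. By log2 ratio of replicate 2 to replicate 1, the main promoter of Crem differed more, with 0.32 against 0.29. The region chr1:64532681-64533020 lay over most of its annotated starts, and a weaker one 759 bp into the gene had heights of 0.681 and 0.801.

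Crem (chr18:3266048-3337748, minus strand) encodes the related modulator CREM, made as activators and as repressors. At its first promoter the peak reached 6.15 in replicate 1 and 7.70 in replicate 2, a mean of 6.92 ± 1.09 (SD, n = 2). A second region, chr18:3336701-3337220, had heights of 0.991 and 1.52, a log2 ratio of 0.61 that fell outside the central 95% of all shared regions. Starts of Gm6225, another noncoding gene, lay within 1000 bp of both.

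Atf1 (chr15:100227819-100261244, plus strand), which encodes the closest relative of CREB and pairs with it, had the lowest main promoter among the factors. The height was 2.15 in replicate 1 and 2.24 in replicate 2, with a mean of 2.20 ± 0.0665 (SD, n = 2). It lay above 37.7% and 41.5% of genes with a promoter peak, below the middle of the ranking in both libraries.

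The sequences of 3 of these promoters set the most protected beside the least. Below are the parts of the main promoter regions that lie in no annotated exon, 5′ to 3′ on the strand of the gene, from mm10 (RefSeq GRCm38.p6), with bases that a footprint covered in both libraries in capitals. They are Atf2 at chr2:73892761-73892995 (minus strand, from -367 to -133 of its most used start), Atf4 at chr15:80255001-80255183 (plus strand, from -183 to -1) and Atf1 at chr15:100227519-100227818 (plus strand, from -300 to -1).
Atf2 promoter: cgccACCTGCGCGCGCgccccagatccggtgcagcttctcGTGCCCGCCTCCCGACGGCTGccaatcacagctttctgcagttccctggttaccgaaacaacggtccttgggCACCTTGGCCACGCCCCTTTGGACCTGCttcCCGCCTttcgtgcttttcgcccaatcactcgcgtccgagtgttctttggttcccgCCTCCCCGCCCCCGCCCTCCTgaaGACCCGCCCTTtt
Atf4 promoter: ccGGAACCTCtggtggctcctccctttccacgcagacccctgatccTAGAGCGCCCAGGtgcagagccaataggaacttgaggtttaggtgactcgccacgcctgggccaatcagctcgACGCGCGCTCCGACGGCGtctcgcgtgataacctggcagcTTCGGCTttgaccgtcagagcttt
Atf1 promoter: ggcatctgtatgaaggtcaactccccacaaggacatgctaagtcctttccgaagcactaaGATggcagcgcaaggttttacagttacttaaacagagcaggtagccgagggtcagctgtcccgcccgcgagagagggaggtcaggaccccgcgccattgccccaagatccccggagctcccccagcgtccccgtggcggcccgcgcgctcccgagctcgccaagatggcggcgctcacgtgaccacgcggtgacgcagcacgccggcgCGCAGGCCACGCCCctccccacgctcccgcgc
In Atf2, 99 of 235 bases were in capitals, in 6 stretches, and 3 matches to the GC box GGGCGG, written here as CCGCCC, lay inside 2 of these stretches at -140, -156 and -162. In Atf4, 46 of 183 bases were in capitals, in 4 stretches. In Atf1, 17 of 300 bases were in capitals. The Atf1 stretch holds the YY1 motif AAGATGGCG at -75 and a TGACG at -48, both in no footprint of either library.

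Of the CRTC genes, which encode the coactivators that dephosphorylation sends to the nucleus, Crtc2 (chr3:90254163-90264125, plus strand) had the tallest promoter peak. It reached 8.26 in replicate 1 and 7.64 in replicate 2, a mean of 7.95 ± 0.441 (SD, n = 2). Crtc2 is best known as a partner of CREB in liver glucose production. Crtc1 (chr8:70382355-70439579, minus strand), the member most studied in neurons, had heights of 5.25 in replicate 1 and 5.11 in replicate 2, a mean of 5.18 ± 0.100 (SD, n = 2).

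Crtc3 (chr7:80586627-80688877, minus strand) had the lowest promoter height, 1.00 in replicate 1 and 1.03 in replicate 2, with a mean of 1.01 ± 0.0161 (SD, n = 2). Only 14.4% and 16.0% of genes with a promoter peak were lower. This tallest peak did not cover the annotated start and belonged to chr7:80687741-80688420, centred 796 bp inside the gene, while the region over the start, chr7:80688647-80688900, had heights of 0.609 and 0.734. With a promoter window of 500 bp the mean height of Crtc3 was 0.817, from the start region in replicate 1 (0.609) and the inner one in replicate 2 (1.03), and the gene still came last.

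The exon-free promoter stretches of Crtc1, chr8:70439580-70439840 (minus strand, from -261 to -1), and Crtc2, chr3:90254061-90254162 (plus strand, from -235 to -134), are shown in the same way for their protected bases.
Crtc1 promoter: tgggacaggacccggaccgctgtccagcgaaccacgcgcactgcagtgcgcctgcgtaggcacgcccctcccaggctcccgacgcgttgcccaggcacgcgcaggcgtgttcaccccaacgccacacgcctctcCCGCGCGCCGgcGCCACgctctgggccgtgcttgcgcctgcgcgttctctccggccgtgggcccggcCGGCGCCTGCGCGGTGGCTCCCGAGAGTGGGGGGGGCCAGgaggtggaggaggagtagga
Crtc2 promoter: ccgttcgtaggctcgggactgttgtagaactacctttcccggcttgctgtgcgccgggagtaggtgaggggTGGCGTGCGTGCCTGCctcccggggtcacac
Crtc1 had 55 of 261 bases in footprints of both libraries, in 3 stretches. The longest holds a match to the NRF1 motif GCGCANGCG at -53, read on the other strand as CGCCTGCGC. The other 2 matches in this stretch, at -89 and -159, lay in no footprint of either library. Crtc2 had 16 of 102 bases in capitals, in 1 stretch.

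The acetyltransferase genes Crebbp and Ep300 encode the paralogues CBP and p300, which bind phosphorylated CREB and acetylate histones at enhancers and promoters. Ep300 (chr15:81585351-81652077, plus strand) had promoter heights of 5.36 in replicate 1 and 5.82 in replicate 2, a mean of 5.59 ± 0.325 (SD, n = 2). Crebbp (chr16:4081328-4213997, minus strand) had 2.42 in replicate 1 and 2.07 in replicate 2, a mean of 2.25 ± 0.252 (SD, n = 2). Both libraries thus placed Ep300 above Crebbp, and the ranges did not overlap. At Crebbp the peak was 60 bp wide in replicate 1 and 400 bp in replicate 2. All footprints of replicate 1 in this shared region of Crebbp lay outside its narrow peak. Ep300 also had a second shared region, chr15:81585981-81586460, 870 bp into the gene, with heights of 2.70 and 2.43. Starts of 1110025M09Rik and Gm23880 lay within 1000 bp of both Ep300 regions.

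The upstream stretches of Ep300, chr15:81585081-81585300 (plus strand, from -270 to -51), and Crebbp, chr16:4214021-4214320 (minus strand, from -323 to -24), set a tall beside a low promoter.
Ep300 promoter: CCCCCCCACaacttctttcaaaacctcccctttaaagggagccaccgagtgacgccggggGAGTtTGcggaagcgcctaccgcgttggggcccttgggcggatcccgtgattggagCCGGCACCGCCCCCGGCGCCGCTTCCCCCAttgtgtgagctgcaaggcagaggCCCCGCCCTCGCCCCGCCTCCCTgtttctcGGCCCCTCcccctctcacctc
Crebbp promoter: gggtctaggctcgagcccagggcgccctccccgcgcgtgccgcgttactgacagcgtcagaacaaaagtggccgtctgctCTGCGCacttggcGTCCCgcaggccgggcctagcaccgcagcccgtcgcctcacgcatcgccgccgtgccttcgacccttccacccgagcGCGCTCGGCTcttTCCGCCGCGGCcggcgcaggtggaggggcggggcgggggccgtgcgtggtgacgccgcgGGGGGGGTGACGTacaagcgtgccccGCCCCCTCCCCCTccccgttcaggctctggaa
Ep300 had 76 of 220 bases in footprints of both libraries and Crebbp 58 of 300, each in 6 stretches. In Ep300, GC boxes at -145 and -96 were covered in both libraries. In Crebbp, a TGACG at -72 lay in the stretch of capitals that ends in TGACGT, and the other TGACG matches, at -89 and -267, lay in no footprint.

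Height and breadth of opening ordered these promoters differently. Breadth is given here as the percentage of bases within 1000 bp of a cluster's start sites that the cut rate track lists, which it does only where the authors' false discovery rate is below 0.05. Over all open start site clusters the median was 31.0% in replicate 1 and 36.6% in replicate 2. Crebbp, with a low peak, had 67.7% and 70.7% of its window listed, and Crtc3, with the lowest, had 51.2% and 67.7%. Tall Crtc2 had 27.4% and 35.9%, and Crtc1 had 25.4% and 43.3%. Atf2 was both tall and broad, with 68.1% and 73.1%. Creb1 had 62.2% and 63.7%, Crem P1 had 62.8% and 60.5%, and Ep300 had 66.3% and 72.4%. Atf4 varied most between the libraries, with 48.8% in replicate 1 and 81.8% in replicate 2. Atf1, low in height, was close to the median of all clusters in replicate 1 and below it in replicate 2, with 33.6% and 30.2%.

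**Figure D2:**
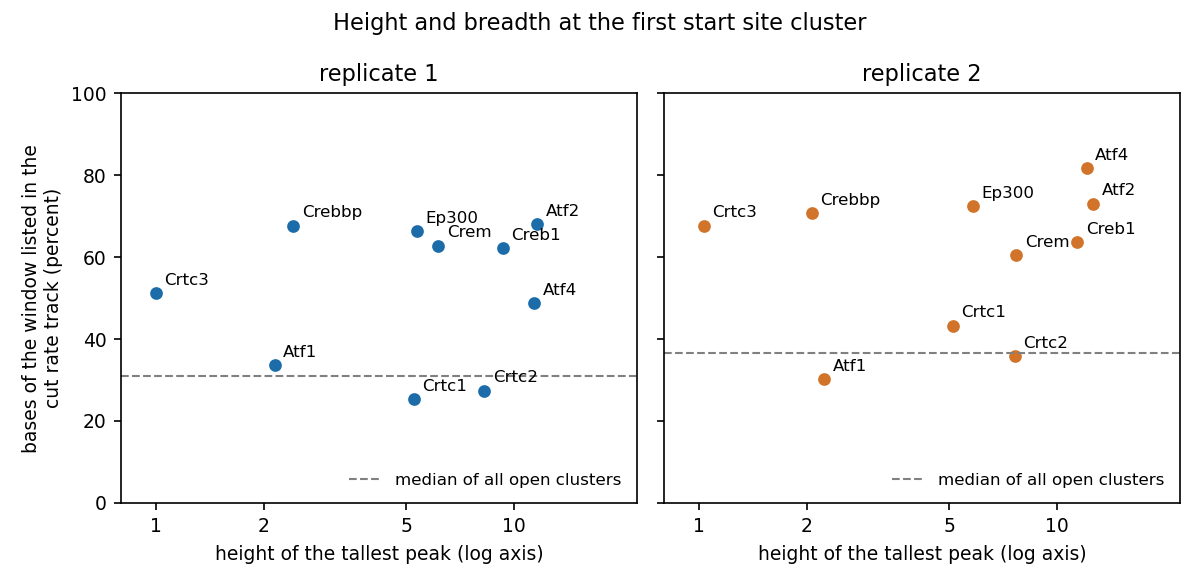
Percentage of bases within 1000 bp of the first start site cluster that the cut rate track lists (vertical axis) against the height of the tallest peak there (horizontal, log axis), 1 point per gene in each library, with the median of all open clusters dashed. Crebbp and Crtc3 lie to the left and well above the dashed line, while Crtc2 lies just below it at a height of 8.26 in replicate 1 and 7.64 in replicate 2.

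Alternative promoters were taken as clusters of annotated starts with gaps of up to 1000 bp, numbered P1, P2 and so on from the 5′ end of the gene. The 10 genes had 40 such clusters, and 13 were open, that is, had a peak in each library, against 31.0% of all clusters of protein-coding genes. Every first cluster was open (10 of 10, against 54.8% of all first clusters). Of the 30 further clusters 3 were open, against 11.4% of all further clusters, a share close to the background. The open ones were Crem P6, Crtc3 P2 and Crebbp P4. None of the 27 clusters without a peak had listed bases of the cut rate track in both libraries, against 1.08% of such clusters over all genes. In these 27 no base was listed in either library. Of the 30 further clusters, 14 start only noncoding transcripts, and 5 have a transcript in the basic set of the annotation, of which 1, Crem P6, was open.

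Crem P6, 55820 bp downstream of the first start, is the promoter inside the gene that gives the short transcripts of the ICER type, known as cAMP-inducible repressors. All 7 of its transcripts code for 95 to 125 codons, against 124 to 357 codons from P1. Its peak reached 2.19 in replicate 1 and 1.81 in replicate 2, a mean of 2.00 ± 0.266 (SD, n = 2), below P1 in both libraries without overlap. The region chr18:3280761-3281220 covered the 3 downstream starts of the cluster, 3281132, 3281101 and 3281078. From the 3 upstream starts, 3281738, 3281747 and 3281769, the nearest peak of replicate 2 was 538 to 569 bp away, whereas replicate 1 had a separate peak of height 0.490 over the last of them. Clusters P2 to P5 of Crem, which start longer coding transcripts of 217 to 341 codons, had no peak in either library.

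The other open inner clusters were weak. Crtc3 P2, which starts noncoding transcripts, had heights of 0.776 and 0.709 from a region 646 and 706 bp from its nearest start, and it was not open with a promoter window of 500 bp. Crebbp P4, from a coding transcript outside the basic set, had heights of 0.621 and 0.484. Neither was in the shorter of the authors' peak lists, whereas Crem P6 was.

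The deposited footprints all carry the same value of 0.01 and no strength of their own, so their number, place and presence in both libraries are given. Over the spans and flanks there were 160 footprints in replicate 1 and 198 in replicate 2, with a median length of 10 bp in each. Not all lay in a called peak of their own library. In replicate 1, 123 of 160 did, a lower share than the 90.1% of all footprints of that library. In replicate 2, 151 of 198 did, again a lower share than the 87.4% of all. In replicate 1, 96 (60.0%) overlapped a footprint of replicate 2, against 54.8% of all footprints of that library. In replicate 2, 93 (47.0%) overlapped one of replicate 1, against 41.3% of all. These shares of overlap between the libraries are near the background.

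At Atf2 all 6 footprints of each library in the main region were met in the other, and 43.1% of its bases were covered in both libraries. Ep300 followed with 34.5%, Atf4 with 26.4%, Crtc1 with 24.7%, Crem P1 with 22.8% and Creb1 with 22.4%. Crebbp had 14.5%, Crtc2 13.5%, Atf1 3.96% and the main region of Crtc3 2.65%. At Crebbp the footprints of replicate 1 counted here all lay outside its called peak. The median of all 19060 shared promoter regions was 6.56%, so 8 of the 10 genes were above it and Atf1 and Crtc3 below. That median counts weak regions too, whereas the tallest region of each gene was taken here. Among the genes' other own promoter regions, the second of Ep300 had 7.92% and the one 956 bp into Crebbp 4.50%. The start region of Crtc3 had 3.94%. The weaker regions of Creb1, Crem P1 and Atf4, and those of Crtc3 P2 and Crebbp P4, had 0%. At Crem P6 each library had 6 footprints, of which 2 were met, and 3.91% of the bases were covered in both.

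**Figure D3:**
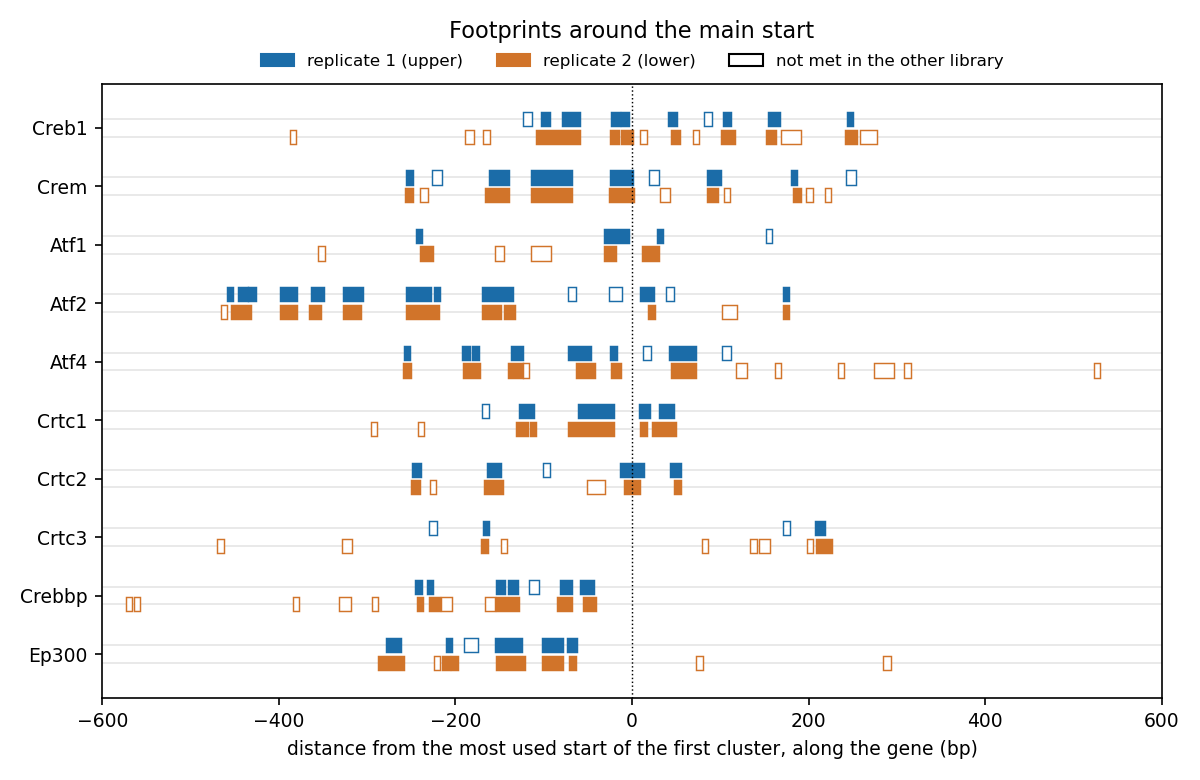
Footprints within 600 bp of the most used start of each gene's first cluster, by distance along the gene (horizontal axis, bp), for replicate 1 (upper row, blue) and replicate 2 (lower row, orange). Filled boxes were met by a footprint of the other library and open boxes were not. All 11 filled boxes of Crebbp and all 11 of Ep300 lie upstream of the start, those of Creb1 lie on both sides (7 upstream, 8 downstream), and Crtc3 has 4. Beyond the map, met footprints also lay downstream of the start, at 771 to 911 bp in Ep300 and at 730 and 1006 bp in Crebbp.

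Motifs were searched on both strands in 300 bp at the middle of each shared region. This window runs past the ends of a region shorter than 300 bp. A match is a description of the letters, not a site, and it is said to lie in a footprint where its middle base does; these places are given for whole regions. The full CRE was in 1 of the 19 own promoter regions, that of Crem P6, against 2.89% of all shared promoter regions. That region held 2 full CREs, 90 bp and 23 bp upstream of the last start, 3281078. The upstream CRE was also 67 bp and 36 bp upstream of the starts 3281101 and 3281132. The downstream CRE lay over the start 3281101 and downstream of 3281132. Both CREs were downstream of the other annotated starts of the cluster. The upstream CRE lay in a footprint of replicate 1 and in none of replicate 2, and the downstream one in none. Over all shared promoter regions, 75.7% of 608 full CREs had their middle base in a footprint of replicate 1 and 74.8% in one of replicate 2.

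The core TGACG, of which each full CRE holds 2, was in 7 of the 19 own promoter regions, against 30.1% of all shared promoter regions. In the whole regions it occurred 18 times, of which 5 lay in footprints of replicate 1, 5 in those of replicate 2 and 2 in both, against 32.3%, 33.5% and 23.9% of all 8495 copies in shared promoter regions. The copies covered in both libraries were in Crebbp, at -72, and in the first promoter of Crem, 86 bp downstream of the start. The footprint over the Crebbp copy lay outside a called peak in replicate 1, and that over the Crem copy in replicate 2. Creb1 held 3 copies downstream of its start, of which those at 103 and 191 bp lay in footprints of replicate 2 alone, and Ep300 held 1 at -219 that did so too. In Atf4 the copy 42 bp downstream lay in a footprint of replicate 1 alone. The GC box was in 12 of the 19 regions, against 58.8% of all. The YY1 motif AAGATGGCG was in 3, against 2.54%: Atf1, Crtc1 and the lower region inside Atf4, 763 bp downstream of its start. None of these 3 matches lay in a footprint, against 27.1% of all such matches in replicate 1 and 37.3% in replicate 2 that did. CCAAT was in 3, against 34.0%, the ETS motif CCGGAAG in 1, against 13.6%, and the AP-1 motif TGANTCA in 1, against 4.73%. The NRF1 motif was in 1, Crtc1, against 11.2%, and the E-box CAGATG was in 2, against 13.0%. The CTCF motif CCACNAGGG was in 0 of 19, against 2.30%.

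The own promoter regions had a median GC content of 66.5% and a median ratio of observed to expected CpG of 0.887, against 63.1% and 0.750 for all shared promoter regions. Crem P6 stood apart from the first promoters, with 45.4% GC and a CpG ratio of 0.595, whereas Crem P1 had 65.0% and 1.01. Crebbp P4 was also AT-richer, with 46.9% and 0.306. Crtc3 P2 had 56.1% GC and the lowest CpG ratio of the own promoter regions, 0.226.

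Over spans and flanks there were 40 shared regions, of which 19 lay at own promoters, 6 at promoters of other genes, 7 in introns, 1 in an exon, 6 outside genes and 1 inside a neighbouring gene. Of these 15 were distal, farther than 1000 bp from every start of a protein-coding gene. They belonged to 5 of the 10 genes, against 46.0% of all protein-coding genes with a distal region over span and flanks. Crtc1 and Crtc3 had 5 each, Atf2 and Atf4 had 2 each, Ep300 had 1, and Creb1, Crem, Atf1, Crtc2 and Crebbp had none, although Crebbp is the longest gene at 133 kb. Per 10 kb, Crtc1 had 0.647 distal regions, more than 94.9% of protein-coding genes, and Crtc3 had 0.409, more than 86.6%. Atf4 had 0.895, more than 98.0%, on the short span of a small gene with close neighbours.

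The tallest distal region was in an intron of Crtc1, 21428 bp inside the gene at chr8:70418021-70418280, with heights of 2.87 in replicate 1 and 2.39 in replicate 2. Its neighbours were lower, with 1.02 and 1.12 at 20425 bp and with 0.717 and 0.792 at 23296 bp. In Crtc3 the intronic region 28096 bp inside the gene, chr7:80660641-80660920, had heights of 2.32 and 2.05, above the gene's own promoter in both libraries. In Atf2 an intronic region 24657 bp inside, chr2:73867861-73868080, had 1.48 and 1.43. Beyond the 3′ end of Atf4, the region inside Rps19bp1 had 1.58 and 1.88, and one outside genes had 1.85 and 1.83. Outside the genes, the tallest region at Crtc1 was at -8282 from its start, with 1.34 and 1.54, and one at Crtc3 was at -2474, with 1.04 and 0.767. Ep300 had 0.740 and 0.601 at -8140, and Atf2 had 0.860 and 0.742 at -1452. Over the last part of Crtc1 an exonic region had 0.908 and 1.05. Only 6 of the 15 distal regions were also shared in the shorter peak lists: those 3 intronic ones, 1 further each at Crtc1 and Crtc3, and the outermost one at Atf4.

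The 3 intronic regions are printed in full, 5′ to 3′ on the strand of the gene (minus in all), with capitals as before, because each is the tallest distal region of its gene.
Crtc1 intron: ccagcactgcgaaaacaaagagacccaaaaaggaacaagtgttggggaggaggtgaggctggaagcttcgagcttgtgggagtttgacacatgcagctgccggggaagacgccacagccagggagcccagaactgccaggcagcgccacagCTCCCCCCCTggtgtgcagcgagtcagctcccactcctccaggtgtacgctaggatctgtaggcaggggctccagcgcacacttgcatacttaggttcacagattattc
Crtc3 intron: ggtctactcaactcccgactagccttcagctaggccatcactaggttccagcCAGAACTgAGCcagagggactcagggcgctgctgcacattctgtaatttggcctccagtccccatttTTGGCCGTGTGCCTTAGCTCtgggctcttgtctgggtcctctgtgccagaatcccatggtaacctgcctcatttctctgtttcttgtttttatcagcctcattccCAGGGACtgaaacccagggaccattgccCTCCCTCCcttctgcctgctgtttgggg
Atf2 intron: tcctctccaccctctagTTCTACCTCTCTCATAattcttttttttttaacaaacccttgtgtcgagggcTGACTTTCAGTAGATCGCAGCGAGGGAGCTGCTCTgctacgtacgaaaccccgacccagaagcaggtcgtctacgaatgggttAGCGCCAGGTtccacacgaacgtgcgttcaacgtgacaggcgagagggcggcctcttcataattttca
Atf2 had 61 of 220 bases in footprints of both libraries, in 3 stretches, and Crtc3 had 45 of 280 in 5. The taller Crtc1 region had 10 of 260, in 1 stretch. The median of all 34563 shared distal regions was 2.37% of bases. That median counts weak regions too, whereas these 3 were picked as the tallest of their genes. Among the other distal regions, those of Atf2 and Ep300 had 0%. Those of Crtc1 and Crtc3 also had 0%, apart from a region outside each gene, with 6.79% and 7.39%. Distal regions of Atf4 lay above the median. No full CRE was in the 15 distal regions, against 0.686% of all shared distal regions, and TGACG was in 2, against 14.6%. CAGATG was in the 300 bp windows of 5, against 31.6%, but only 2 matches lay inside the regions themselves. TGANTCA was in 2, against 14.1%. The distal regions had a median GC content of 51.4%, against 51.7% for all.

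**Figure D4:**
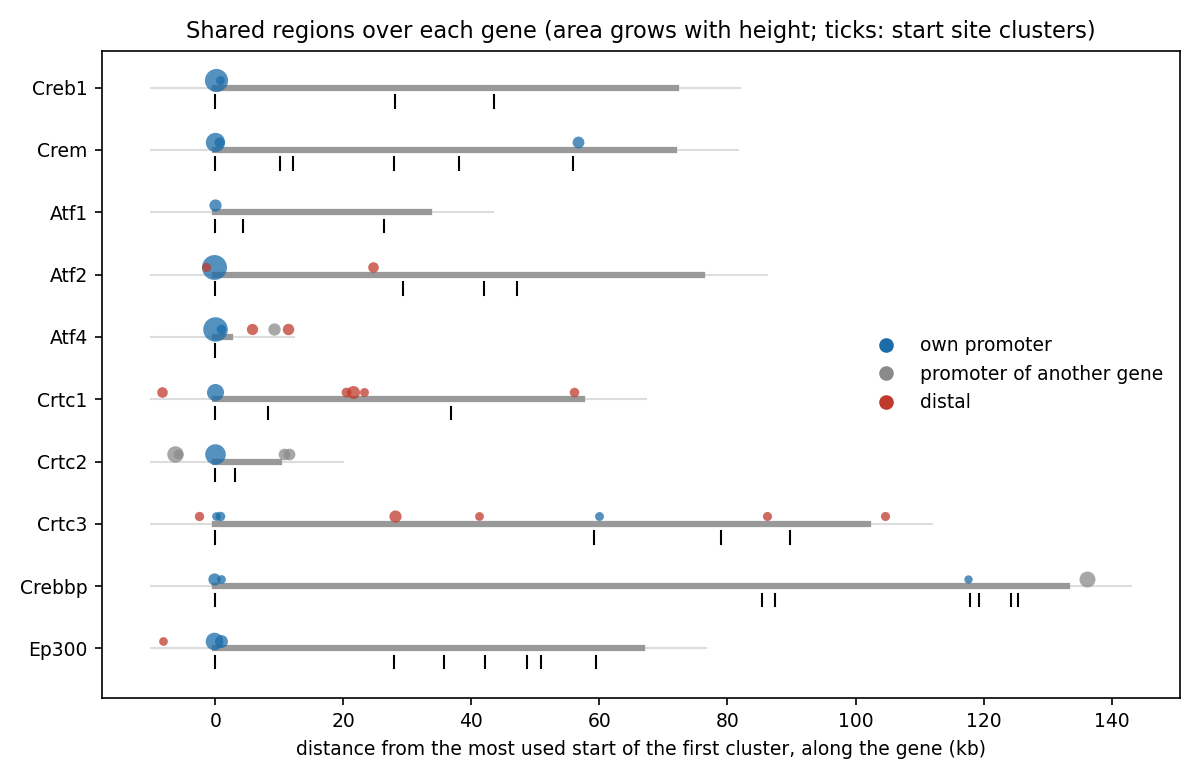
Shared regions over each gene and its 10 kb flanks, by distance along the gene from the most used start (horizontal axis, kb), with the dot area growing with the mean height over 2 libraries, grey bars for gene spans and ticks for start site clusters. Blue dots are own promoters, grey dots promoters of other genes and red dots distal regions. Red dots lie inside Crtc1, Crtc3 and Atf2, and Creb1, Crem, Atf1, Crtc2 and Crebbp have none.

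Promoters of neighbours lay in the flanks of Atf4 (Rps19bp1), Crtc2 (Slc39a1 and Dennd4b) and Crebbp (Trap1, a mitochondrial chaperone gene). The Trap1 promoter, with heights of 3.91 in replicate 1 and 4.95 in replicate 2, stood above the promoter of Crebbp in both libraries. It held the other full CRE of these regions, so that 2 of the 40 regions had one. The exon-free stretch chr16:4077828-4077960 (minus strand) is shown because its CRE, at chr16:4077850-4077857, lay in footprints of both libraries.
Trap1 promoter: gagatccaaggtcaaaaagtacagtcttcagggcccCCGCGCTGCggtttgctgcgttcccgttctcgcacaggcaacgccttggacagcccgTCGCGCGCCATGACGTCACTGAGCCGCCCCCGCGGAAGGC
The last stretch of capitals contains TGACGTCA. At Slc39a1 a TGACG at chr3:90248099-90248103 was also in footprints of both libraries, as was a CTCF motif at Dennd4b, chr3:90265102-90265110. The Dennd4b region with the CTCF motif had heights of 1.53 and 2.34, a log2 ratio of 0.61, outside the central 95%.

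Other genes of the pathway are given as lists, beside the same 59.7% of all genes. Of 18 further ATF and CREB leucine zipper genes, 13 had such a peak in each library, with a median height of 5.82. The tallest and lowest genes of each list are given by the mean over libraries, with the height in replicate 1 and then in replicate 2. Crebl2 (12.4 and 9.92) and Atf5 (10.7 and 10.4) were tallest, and Jdp2 (2.50 and 1.60) and the immediate early gene Atf3 (2.38 and 2.19) were lowest, although Creb5 (2.69 and 1.93) was below Atf3 in replicate 2. Batf and Batf3, known from immune cells, and Creb3l3 and Creb3l4 had none, and Creb3l1 had one in replicate 1 alone (0.991). All 20 kinase and phosphatase genes upstream of CREB and CRTC had one, with a median of 3.54. Rps6ka5, which encodes the CREB kinase MSK1, had 13.5 and 13.8, and Prkaca, a catalytic subunit of protein kinase A, had 11.5 and 12.5. The lowest were Camk4, the nuclear calcium kinase, with 0.908 and 0.876, and Rps6ka4, with 1.15 and 0.976 at different places in the 2 libraries.

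Genes of cAMP synthesis and breakdown were open in 15 of 16, at a median of 1.72. The phosphodiesterases Pde4d (4.68 and 4.55) and Pde10a (3.79 and 3.10) were tallest, although Pde4a (3.22 and 3.48) was above Pde10a in replicate 2. The calcium-stimulated adenylyl cyclases Adcy1 (0.824 and 0.726) and Adcy8 (0.681 and 0.884) were lowest, and Adcy7 had a peak in replicate 2 alone (0.717). Of 14 other acetyltransferase and coactivator genes 13 were open, at a median of 2.61. Kat6b (16.1 and 17.0) and Kat7 (12.3 and 13.2) were tallest, Kat2b (0.561 and 0.826) and Ncoa1 (0.979 and 1.06) were lowest, although Cited1 (1.12 and 1.04) was below Ncoa1 in replicate 2, and Fhl5, which encodes a CREM coactivator of the testis, had no peak.

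**Figure D5:**
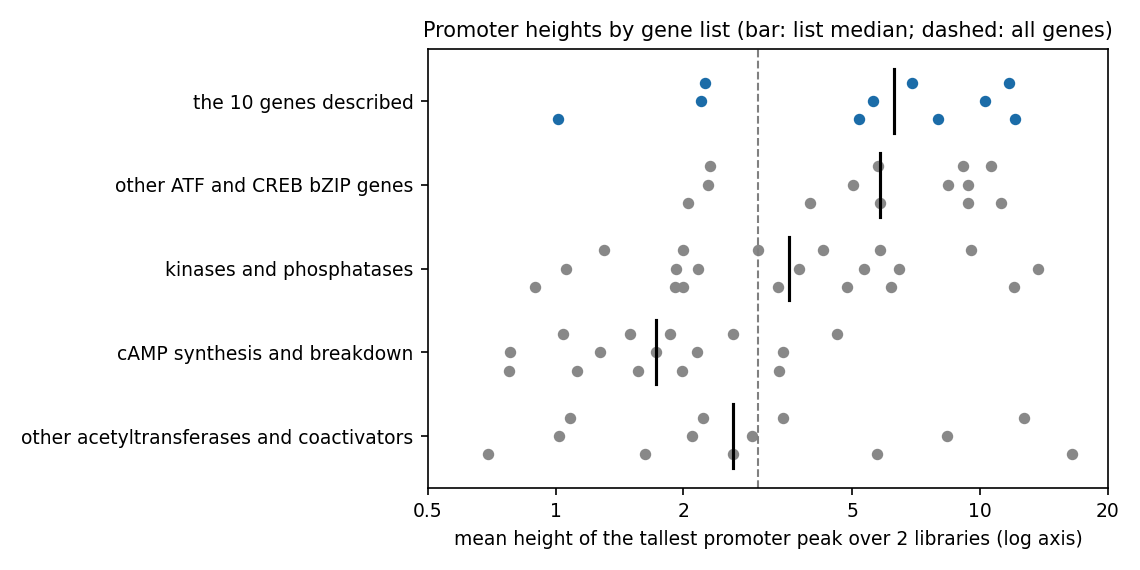
Mean height over 2 libraries of the tallest promoter peak (horizontal, log axis) of each gene with one in both, for the 10 genes described (blue, top row) and 4 further lists of the pathway (grey). Black bars are list medians, 6.26, 5.82, 3.54, 1.72 and 2.61 from top to bottom, and the dashed line is the median of all protein-coding genes, 3.00.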

How the data were processed

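Peak lists, footprints and a cut rate track of 2 DNase-seq libraries were used as deposited, all made per library in mm10, as the file descriptions beside them state. Read depth, aligner and callers: not given in the sources used here. Counting error could thus not be computed. Peak height is the authors' signal on a scale that they do not state. All heights were multiples of a step (0.0119 in replicate 1, 0.00834 in replicate 2) to within 0.00606 of a step. The authors' cut rate track lists bases whose false discovery rate, a q-value, is below 0.05. Each deposited footprint carries the q-value 0.01. Each library had 2 peak lists. The longer (75753 and 77035 peaks) was used, and the shorter (41562 and 42351) as an alternative.

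Peaks of the 2 libraries that overlapped by at least 1 bp made a shared region, which took the tallest peak of each library. Start sites came from GENCODE M21, all transcripts, chained up to 1000 bp apart. A peak was given to the nearest start site cluster of the gene within 1000 bp. Motifs were searched in RefSeq GRCm38.p6. Promoter ranks are among 13412 and 13683 genes with a promoter peak in replicate 1 and replicate 2. Means and SDs are over 2 libraries on separate scales. Named genes were all 10 members and, per list, the 2 tallest, the 2 lowest and each gene not open in both. The members and lists were chosen with earlier results of these data known. Interval, cluster and motif steps were tested on simulated data. Python 3.11.15, numpy 2.4.6 and pandas 2.3.3 were used.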

Additional observations from a re-analysis of the deposited data

How the results depend on the processing

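All 10 genes kept a promoter peak under each alternative computed: the shorter peak list, either library alone, promoter windows of 500 and 2000 bp, and basic transcripts only. Either library alone and the 2000 bp window could not remove such a peak, by construction. The 13 open start site clusters, of 40, varied between 11 and 17 under the alternatives computed. There were 11 of 40 with the shorter list, 11 of 15 with basic transcripts only and 17 of 49 with starts chained up to 300 bp. Heights moved beyond 1 SD in 1 case, Crtc3 with the 500 bp window, at 0.817. Leaving out 1 of 2 libraries cannot move a mean height beyond 1 SD, so those alternatives stayed within it by construction. The 40 shared regions became 23 with the shorter peak list, 24 without flanks and 73 with flanks of 50 kb. The 15 distal regions became 6, 8 and 28 under the same settings. With 1 library left out, the peak regions numbered 50 and 51 and the distal ones 19 and 22. The 96 footprints of replicate 1 met in replicate 2 compare with 160 to 198 footprints when 1 library is left out, by construction, since nothing is then required to match. When only footprints inside a peak of their own library were counted, the 96 became 67. Counting regions with TGACG in place of the full CRE gave 13 in place of 2. Over 16 results and 95 alternatives, 85 stayed within 1.5 times a count or 1 SD of a height, a number that includes the alternatives fixed by construction. No paired analysis was possible because there is 1 group. Crebbp P4 and Crtc3 P2 were not open with the shorter list. Without read depth, a start site without a peak was not detectably open in these libraries, which does not show that it is closed.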

Other observations

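Beside the shared regions, 21 peaks over these genes were found in 1 library alone, 10 in replicate 1 and 11 in replicate 2, with heights from 0.334 to 1.16. The other library had listed bases of the cut rate track under 5 of them. Tallest was a peak 507 bp inside Atf2, with a height of 1.16 in replicate 2, where replicate 1 had 394 listed bases. In Crtc1, replicate 2 alone had intronic peaks 22419 and 23845 bp inside the gene, with heights of 0.717 and 1.00, on either side of the shared region at 23296 bp. In Crebbp, which had no shared distal region, replicate 1 alone had an intronic peak 53296 bp inside the gene with a height of 0.812, and replicate 2 alone had one over an exon 96586 bp inside with a height of 0.450. Near Creb1, replicate 1 alone had a peak at -1724 from the main start with a height of 0.514.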
